A study of Mus musculus with 15 samples.

Results

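The subunits of the oxidative phosphorylation system were read out in mouse podocytes, the epithelial cells that wrap the filtering capillaries of the kidney. Members were protein-coding genes whose names carry the subunit stems mt-Nd, mt-Co, mt-Cytb, mt-Atp, Nduf, Sdh, Uqcr, Cox4 to Cox8 and Atp5, that reached 0.5 of signal in 3 or more libraries. Signal is a read count multiplied by a factor for each library. Of 57132 genes, 102 had such a name and 91 passed the filter, 11 encoded by mitochondrial DNA and 80 by nuclear DNA. By name, 43 belonged to complex I, 4 to complex II, 9 to complex III, 16 to complex IV and 19 to complex V. The rule used no difference between groups. The names are not an exact guide to the subunits: Atp5if1 encodes an inhibitor of ATP synthase and Cox7a2l a supercomplex factor. Ndufa4, counted here under complex I by its name, encodes a subunit of complex IV.

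Complexes I to IV pass electrons from NADH and succinate to oxygen, complexes I, III and IV pump protons across the inner mitochondrial membrane, and complex V, ATP synthase, uses the proton gradient to make ATP. Complex II is encoded by the nucleus alone, while the other complexes join subunits made in the mitochondrion from its own circular genome with subunits imported from the cytosol. Podocytes are also known to make ATP by glycolysis, and defects of the respiratory chain are a known cause of podocyte disease.

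There were 15 libraries, 3 in each of 5 groups. Wild-type podocytes (Col4a3+/+) with vehicle and one set of knockout podocytes (Col4a3-/-) with vehicle stood in the genotype table. A second, separate set of vehicle-treated Col4a3-/- podocytes stood in the treatment tables, beside Col4a3-/- podocytes that received ApoM (apolipoprotein M, which carries sphingosine-1-phosphate in plasma) and others that received CYM50358, which blocks S1PR4, a receptor for this lipid, for 24 h. Col4a3 is the gene of a collagen IV chain of the filter's basement membrane, and mice without it model Alport syndrome. Doses, the source of the cells and the part of Col4a3 that is deleted were not given in the labels. Nothing in the labels says that the 3 libraries of a group were separate cultures, so p-values measure the spread between these libraries, which may be technical.

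Each library held 45417221 to 83166742 reads, so that 1 read was worth a signal of 0.0118 to 0.0221. Mean Col4a3 signal was 1085 with the wild-type allele and 68.3 in the Col4a3-/- set of the same table. The summed signal of 20 podocyte markers was 4321 to 4977 in wild-type and 3427 to 3759 in those knockout libraries, and Tcf21, a transcription factor gene that marks podocytes, was at 0 in all groups. Summed leukocyte markers did not exceed 6.65 in any library, endothelial markers 68.2, and parietal and tubular markers 1057. Mesangial and fibroblast markers, led by Acta2, summed to between 5791 and 8250 over all libraries. Single markers moved more than the sums: mean Col1a1 signal was 24.3 in wild-type and 472.9 in knockout cells of the genotype table, Cspg4 10.2 and 0.442, and of the tubular markers Cldn2 61.6 and 6.81 and Cdh16 71.1 and 198. The part of these marker differences in the results was not tested. In bulk RNA, fewer cells of a type and less RNA per cell cannot be told apart.

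The mitochondrial genes differed widely in level. Per kilobase of gene, wild-type signal was 2838 ± 903 for mt-Co1 (SD, n = 3), 2003 ± 549 for mt-Cytb, 1737 ± 480 for mt-Nd1, 1171 ± 336 for mt-Nd2, 1149 ± 320 for mt-Nd5 and 645.0 ± 191 for mt-Nd4. mt-Nd6, the single protein gene of the other DNA strand, stood at 33.2 ± 9.35. By contrast mt-Co2, mt-Co3, mt-Atp6 and mt-Nd3 reached only 4.20 ± 1.20, 3.44 ± 0.721, 2.28 ± 0.252 and 1.05 ± 0.567. mt-Co1, mt-Co2 and mt-Co3 encode the catalytic core of complex IV, whose proteins assemble together. The low genes lie side by side on the mitochondrial map, between mt-Co1 and mt-Nd4. mt-Atp8 and mt-Nd4l, in the same stretch, failed the filter, their highest libraries holding 11 and 37 reads. mt-Nd3 lay just inside the filter with 10 to 60 reads per library and a mean signal of 0.548, the lowest of the members, while mt-Co1 was the highest at 8535.

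The low genes are also those with near-perfect copies in the nuclear genome. In the GENCODE vM21 annotation of GRCm38, whose mitochondrial gene positions equal those of the tables for 37 of 37 genes, a block of unprocessed pseudogenes lies on the minus strand of chromosome 1. Of all 50-base stretches of mt-Co2, 100% also occurred in other annotated transcripts, and the share was 99.9% for mt-Co3, 99.5% for mt-Atp6, 98.8% for mt-Nd4l and 98.0% for mt-Nd3. It was 62.2% for mt-Nd4 and 51.1% for mt-Co1, 8.19% for mt-Nd2 and 7.61% for mt-Nd5, and 0 for mt-Nd1, mt-Cytb and mt-Nd6. mt-Atp8 also shared 0% and is low all the same; it overlaps mt-Atp6 by position. Over 681 aligned bases, mt-Co2 (chrM:7013-7696) and its copy Gm28661 (chr1:24614885-24615565) had 0 mismatches. mt-Co1 matched Gm29216 over 483 bases with 1 mismatch, A1066T, counted from the first base of mt-Co1. The openings of both matched stretches are printed because they show how little sequence there is to tell a mitochondrial read from a nuclear one; capitals mark the mismatched base. They are chrM:6390-6449 (plus strand), chr1:24616129-24616188 (minus), chrM:7013-7072 (plus) and chr1:24615506-24615565 (minus), all GRCm38.
mt-Co1: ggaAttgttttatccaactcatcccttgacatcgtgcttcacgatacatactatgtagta
Gm29216: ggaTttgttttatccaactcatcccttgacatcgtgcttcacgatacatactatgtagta
mt-Co2: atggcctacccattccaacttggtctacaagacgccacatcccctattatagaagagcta
Gm28661: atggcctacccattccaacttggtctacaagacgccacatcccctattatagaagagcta

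The copies themselves had low signal. Gm28661 had 2.43 to 8.02 over the 15 libraries, and the copy of mt-Atp6 (Atp6-ps, Gm10925 in GENCODE vM21) had 4.75 to 20.1. Adding Gm28661 and a further copy, Gm13341, to mt-Co2 gave a wild-type sum of 7.46 ± 2.16, far below the signal of mt-Co1. How reads that match several places were counted is not given in the sources used here, and the part of shared sequence in these levels was not tested. All values of mt-Co2, mt-Co3, mt-Atp6 and mt-Nd3 are therefore uncertain as levels of those transcripts.

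**Figure D1:**
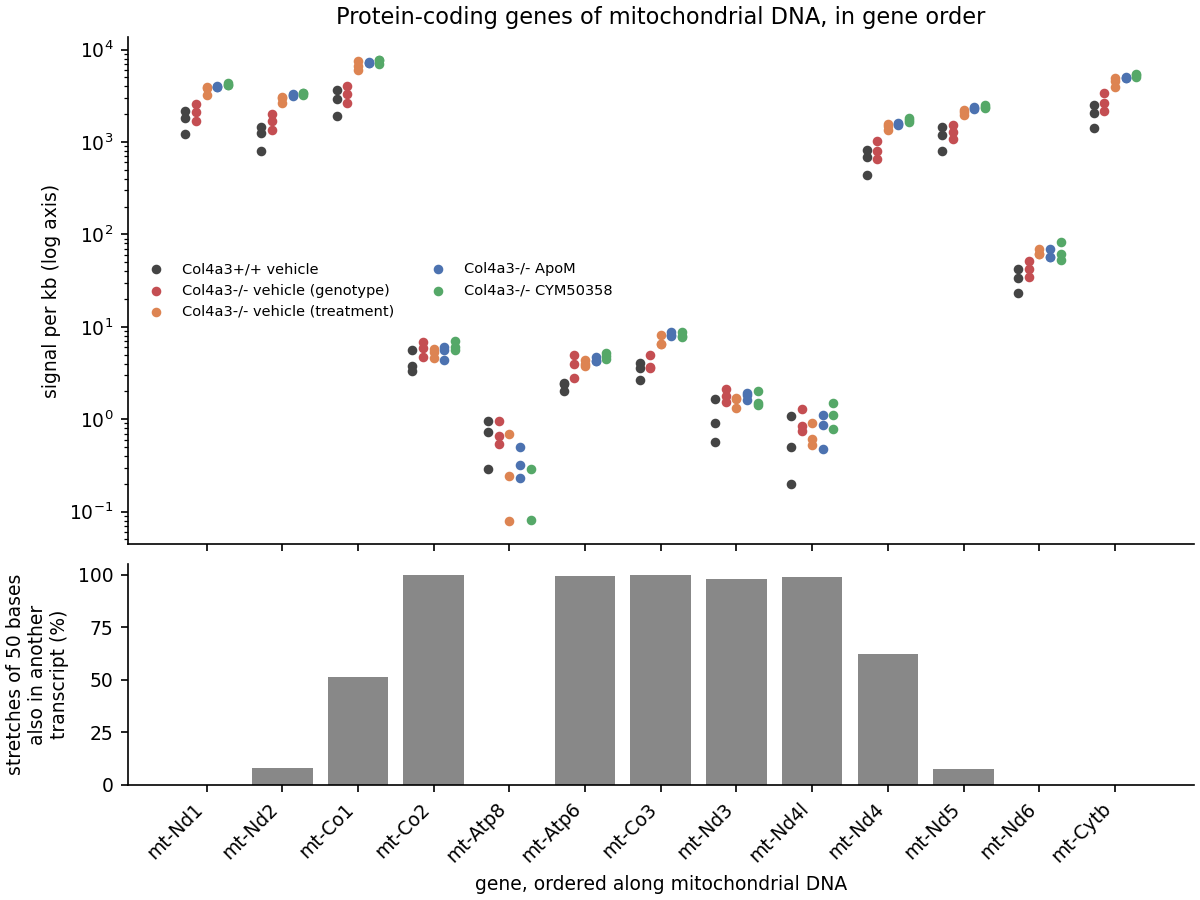
Signal per kilobase (log axis) of the 13 protein-coding mitochondrial genes in map order in the 5 groups, above bars giving the percentage of each gene's 50-base stretches found in other annotated transcripts. The genes from mt-Co2 to mt-Nd4l sit far below mt-Co1 and mt-Nd4, and of these all but mt-Atp8 share at least 98.0% of their stretches; the 1 library with mt-Atp8 at 0 has no point on the log axis.

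Nuclear members also differed widely in level. In wild-type cells signal per kilobase was highest for Atp5f1b, the catalytic beta subunit of ATP synthase (362.1 ± 16.8), and for Cox4i1, a complex IV subunit that takes part in its regulation (260.9 ± 18.6). It was lowest for Ndufb2 (0.795 ± 0.0559), an accessory subunit of complex I. The length used for nuclear members was that of the longest annotated coding transcript, so these ranks depend on it. By mean signal over all libraries, without length, Cox5b-ps was lowest of the nuclear members (1.09), below Ndufb2 (2.77). Cox5b-ps, which carries a pseudogene's name but is typed as protein-coding in the tables, lay just inside the filter, with 37 to 176 reads per library. The tissue-restricted isoforms Cox4i2, Cox6a2, Cox7a1, Cox8b and Cox8c and the hypoxia-linked Ndufa4l2 failed the filter, as did Cox7b2, Ndufb11b and a second identifier named Atp5po. Just outside it were mt-Nd4l (mean signal 0.249), Ndufa4l2 (0.162) and Cox6a2 (0.128).

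Between the genotypes, 15 members were higher and 15 lower in knockout cells by limma with Benjamini-Hochberg adjustment over all 14313 genes tested. Against this, 22.6% of all genes tested were called higher and 22% lower, and the groups did not overlap for 44 of 91 members against 55.8% of all genes. Member changes were thus no more frequent than the background, and their median log2 difference was -0.01 against 0.0029 for all genes. The balance of directions depended on the scaling: 17 higher and 5 lower with library totals over nuclear genes, 8 higher and 22 lower with medians aligned. In the authors' deposited table, 19 members passed the same threshold, 9 above and 10 below 0, where 14.9% of its tested genes were higher and 15.1% lower; each of the 19 was among the 30 called here. With the replicate number as a block, which the titles give to both genotypes, 24 were higher and 17 lower (25.1% and 24.2% of all genes).

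Complex IV held the member with the widest difference. Cox6b2, known as the testis-type isoform of subunit 6B, had a signal of 38.0, 26.9 and 32.9 in the wild-type libraries. In the knockout libraries it was 5.05, 5.36 and 6.20. The groups were far apart, and the log2 difference was -2.35 (SE 0.129, adjusted p = 1.47e-06, limma). Cox6b1, the isoform of most tissues, differed little (log2 difference -0.06, adjusted p = 0.412). Per kilobase, Cox6b2 thus stood at 55.7 ± 9.51 beside 160.7 ± 8.22 for Cox6b1 in wild-type cells, and at 9.46 ± 1.02 beside 153.6 ± 7.41 in knockout cells. In the other vehicle knockout set, normalised separately, Cox6b2 signal was lower still, at 2.24, 2.52 and 2.17.

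Other complex IV subunits rose. Cox4i1 had signals of 184, 213 and 202 in wild-type and 248.8, 248 and 237 in knockout libraries, without overlap (log2 difference 0.29, adjusted p = 0.00451, limma). With chromosome medians subtracted its difference was 0.015 (adjusted p = 0.867, limma). Cox7c and Cox6c, small structural subunits, rose by 0.25 and 0.17, and Cox7b by 0.15. Cox5a, which binds the matrix side of the complex, fell by 0.19. Cox6a1, Cox7a2, Cox7a2l and Cox8a did not pass the threshold, with log2 differences of 0.04, -0.09, -0.03 and -0.04. Of 16 members of complex IV, 4 rose and 2 fell, where 22.6% and 22% of all genes did.

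Ndufa4, the complex IV subunit with a complex I name, fell from 128, 149 and 137 to 106, 106 and 102 (log2 difference -0.39, SE 0.062, adjusted p = 9.17e-04, limma). Every wild-type library stood above every knockout library. Atp5if1, the ATP synthase inhibitor, did not pass (log2 difference -0.10, adjusted p = 0.136).

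Of the 43 complex I members, 8 rose and 3 fell, where 22.6% and 22% of all genes did. The widest difference was that of Ndufs5, an accessory subunit with cysteine motifs: its signal was 7.08, 7.82 and 7.60 in wild-type and 16.7, 20.5 and 18.5 in knockout libraries (log2 difference 1.20, SE 0.099, adjusted p = 1.83e-05, limma). Its processed pseudogene Ndufs5-ps (BC002163 in GENCODE vM21) moved the opposite way, from 22.4, 21.5 and 21.6 to 8.77, 9.52 and 10.2 (log2 difference -1.13, adjusted p = 9.51e-06, limma). Gene and copy together summed to 29.5, 29.3 and 29.2 in wild-type and 25.4, 30.0 and 28.7 in knockout libraries, and these ranges overlap. Ndufs5 took 25.6% of the summed signal in wild-type and 66.2% in knockout cells. The sums were formed after the values were seen.

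The copy matches the Ndufs5 transcript over all of its 319 bases with 2 mismatches, both within the coding sequence. The stretch of 90 coding bases that holds both is printed, since these are the only places in the aligned sequence where the annotated gene and its copy can be told apart; capitals mark them, as T66C and A90G counted from the first printed base. It lies at chr4:123715975-123716064 (minus strand) for Ndufs5 and at chr16:42955646-42955735 (plus) for the copy, in GRCm38. Whether the cells carry the reference bases at these places was not tested, so the rise of Ndufs5 is uncertain as a rise of its messenger RNA.
Ndufs5: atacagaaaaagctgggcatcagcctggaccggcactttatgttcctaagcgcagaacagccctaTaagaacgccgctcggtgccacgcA
Ndufs5-ps: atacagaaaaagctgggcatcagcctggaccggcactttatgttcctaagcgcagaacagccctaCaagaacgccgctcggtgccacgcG

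The next complex I members were smaller in effect. Ndufb9, an accessory subunit of the membrane arm, rose by 0.38 on the log2 scale (signal 7.16 to 9.70 in wild-type, 10.2 to 13.3 in knockout). Ndufs7, which holds the iron-sulfur cluster next to the ubiquinone site, rose by 0.37, from 22.6, 25.5 and 24.8 to 30.9, 34.8 and 29.8. Ndufa12 rose by 0.27; its pseudogene Ndufa12-ps rose beside it, from at most 0.362 in wild-type to 2.54 to 2.92 in knockout libraries. Falls were those of Ndufa4, of Ndufa9, an accessory subunit near the ubiquinone site (-0.17), and of the core iron-sulfur subunit Ndufs1 (-0.15).

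Of 9 complex III members, 5 fell and 1 rose, where 22% and 22.6% of all genes did. With library totals over nuclear genes, Uqcrc2, Uqcrq and Uqcr10 did not pass (-0.15, -0.15 and -0.19). Uqcrh, the hinge subunit that binds cytochrome c1, was 61.7, 62.8 and 62.9 in wild-type and 48.2, 50.1 and 48.1 in knockout libraries (log2 difference -0.35, SE 0.051, adjusted p = 5.96e-04, limma). Uqcrb fell by 0.26, Uqcr10 by 0.23, and Uqcrc2 and Uqcrq by 0.19 each. Uqcrc1, a core subunit of the same complex, went the other way, from 95.9, 102 and 100 to 114, 122 and 114 (log2 difference 0.23). Of the 4 subunits of complex II, the membrane anchor Sdhd fell by 0.22.

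Among 19 members of complex V, 2 rose, Atp5mc2 and the mitochondrial mt-Atp6, and 4 fell, where 22.6% and 22% of all genes did. The nuclear copy of mt-Atp6 rose too (0.48). The falls were Atp5mg, a small subunit at the dimer interface (-0.20), Atp5f1a, the alpha subunit (-0.17), Atp5pb (-0.16) and Atp5pd (-0.13), both of the peripheral stalk. Atp5mg shares 84.8% of its 50-base stretches with other transcripts, but its copies had at most 1.92 of signal. The 3 genes for the proton-carrying c subunit, whose mature proteins are identical, did not share a direction: Atp5mc2 rose by 0.19, and Atp5mc1 and Atp5mc3 did not pass, with log2 differences of -0.17 and -0.09. Atp5f1b had 0.16 (adjusted p = 0.0814).

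**Figure D2:**
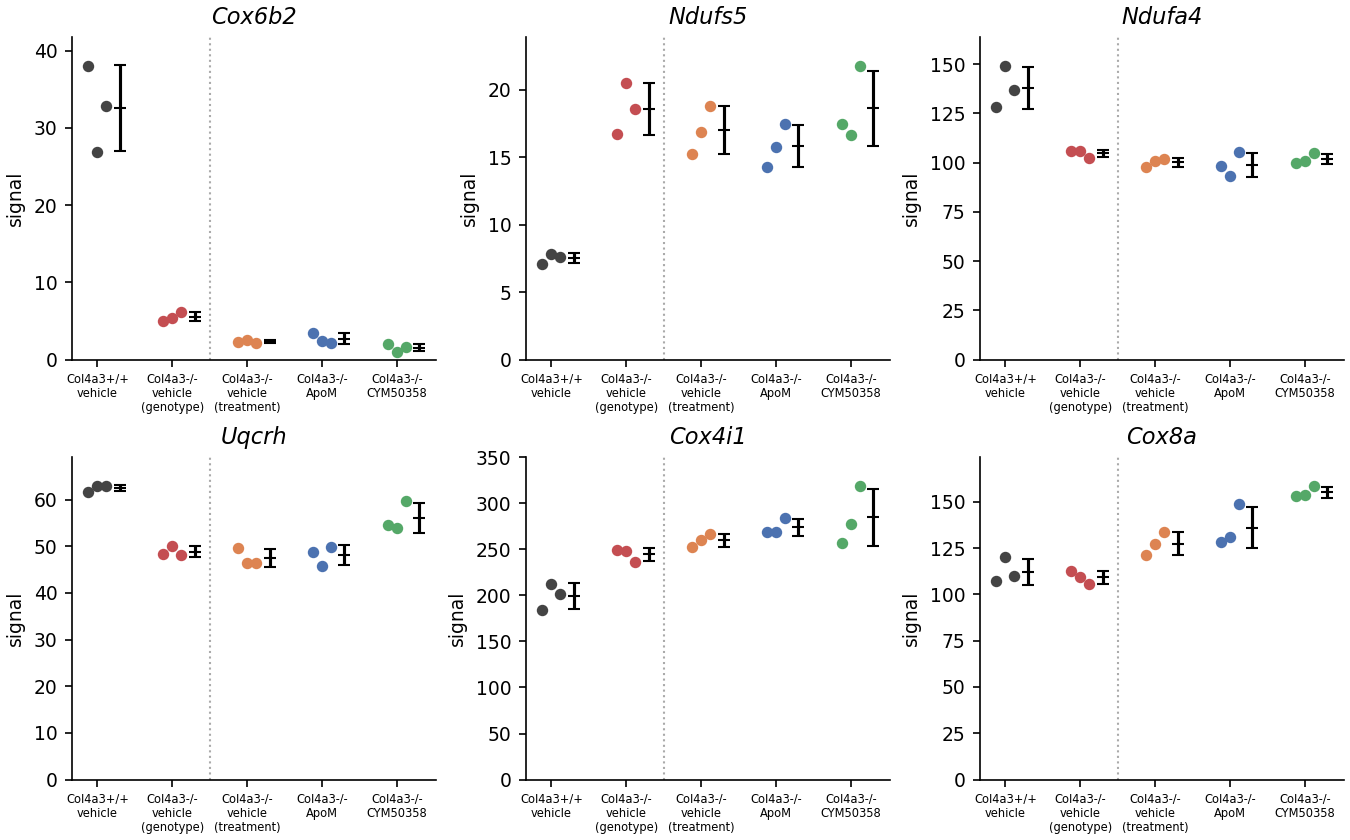
Signal of Cox6b2, Ndufs5, Ndufa4, Uqcrh, Cox4i1 and Cox8a in each of the 15 libraries (points) with group mean ± SD (bars). Cox6b2 falls from at least 26.9 in wild-type to at most 6.20 in knockout libraries, and the signal of Ndufs5 lies from 16.7 to 20.5 in those knockout libraries against at most 7.82 in wild-type.

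**Figure D3:**
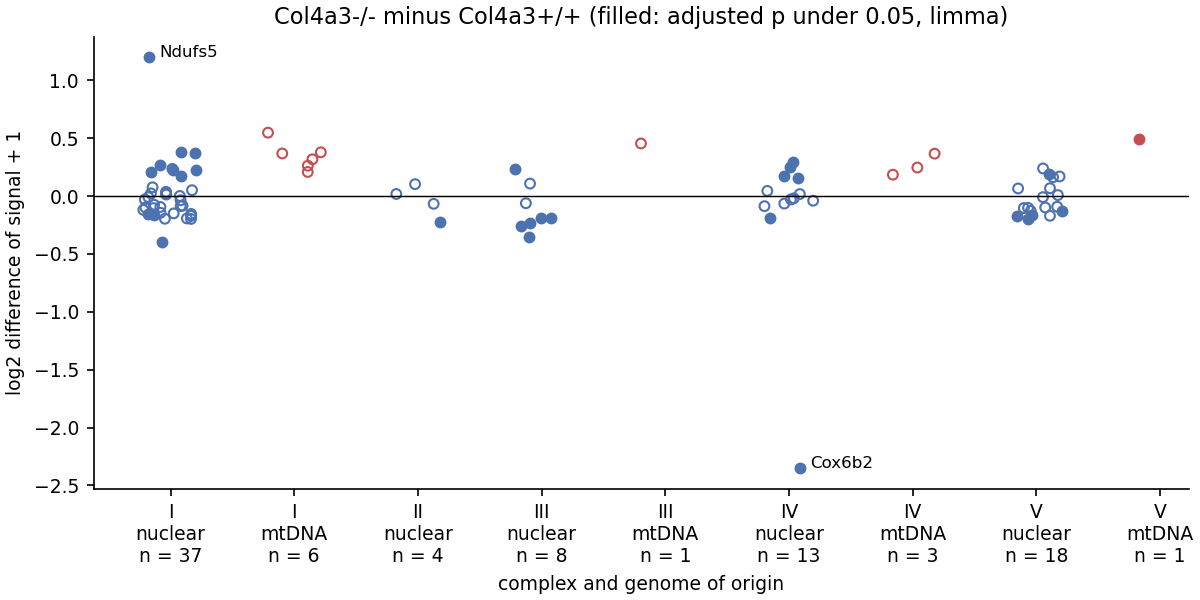
Log2 differences, knockout minus wild type, of all members by complex and by genome of origin, with called members as filled and the others as open circles. Called nuclear members lie on both sides of 0 in complexes I, III, IV and V, and all 11 mitochondrial members lie above 0.

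Of the 30 calls, 8 were kept under all 18 alternatives, those of Cox6b2, Ndufs5, Ndufa4, Uqcrh, Uqcrb, Uqcrc1, Cox7c and Atp5mg. The median of all genes differed between chromosomes, and calls of members were unevenly spread over them: all 3 members on chromosome 8 rose, where the median of all genes was 0.28, all 4 on chromosome 15 (median 0.17) and 2 of 5 on chromosome 10 (median 0.28). On chromosome 6, which holds Ndufa4 and Ndufa9, the median was -0.17, and on chromosome 4, which holds Uqcrh and Ndufs5, -0.16. Over the alternatives Ndufa4 lay from -0.45 to -0.22 and Uqcrh from -0.38 to -0.19. With chromosome medians subtracted, 6 members were higher, and of the 30 calls those of Ndufa12, Ndufa13, Ndufb7, Ndufv1 and Ndufa9 changed sign. The calls of Cox4i1, Cox6c (0.0023), Ndufs7 (0.096) and Ndufa6 (0.058) were also lost there. So were those of Atp5mc2 (0.016), Ndufb9 (0.21), mt-Atp6 (0.20), Atp5f1a (-0.067), Atp5pb (-0.071), Atp5pd (-0.098), Ndufs1 (-0.13) and Uqcrq (-0.15). For mt-Atp6 the subtracted median came from 15 mitochondrial DNA genes, 11 of them members.

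Members encoded by mitochondrial DNA lay above 0 in 11 of 11 cases, with log2 differences from 0.19 to 0.55 and a median of 0.37. They took 0.843%, 1.31% and 1.60% of signal in the wild-type libraries and 1.24%, 1.57% and 1.94% in the knockout libraries. The groups overlapped, with SDs of 0.380 percentage points among wild-type and 0.350 among knockout libraries. Within each replicate number the knockout library was higher, by 0.395, 0.263 and 0.342 percentage points. Only mt-Atp6 was called without the block (1.36, 1.62 and 1.68 against 1.88, 2.67 and 3.35; log2 difference 0.49, SE 0.158, adjusted p = 0.0309, limma), and that call was lost when any library other than knockout replicate 1 was left out. Its copy Atp6-ps, which holds 99.5% of its 50-base stretches, rose too (0.48, adjusted p = 0.0333, limma). mt-Atp6 took 20.4% of their summed signal in wild-type and 23.0% in knockout cells, so its rise is uncertain as one of its transcript. With the replicate number as a block, 7 were called by limma: mt-Nd2 (0.55, adjusted p = 7.78e-04), mt-Cytb (0.46, adjusted p = 0.00329), mt-Nd4 (0.38), mt-Nd6 (0.37), mt-Co2 (0.37), mt-Nd1 (0.32) and mt-Atp6. Of these, mt-Co2 shares 99.5% of its stretches with its copy Gm28661 and is uncertain too. mt-Co1, mt-Nd3, mt-Nd5 and mt-Co3 were not called in either fit (0.25, 0.26, 0.21 and 0.19).

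The unblocked difference was smaller without 1 library. Without wild-type replicate 1 the median over the mitochondrial members was 0.15, with 9 of 11 above 0. Nuclear members took 0.534% to 0.581% of signal in wild-type and 0.554% to 0.591% in knockout libraries and had a median of -0.04, against 0.37 for the mitochondrial members. The difference between the genomes was not tested.

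**Figure D4:**
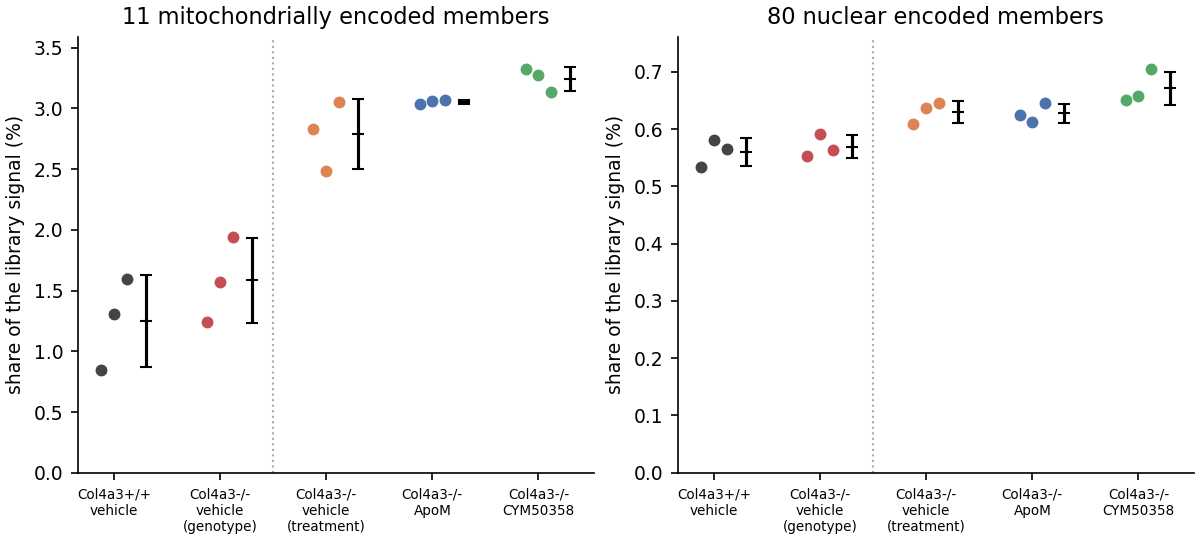
Percentage of each library's signal from mitochondrial members and from nuclear members in the 5 groups (points are libraries, bars mean ± SD), with a dotted line between the separately normalised tables. The mitochondrial share runs from 0.843% to 1.94% in the genotype table and from 2.48% to 3.32% in the treatment tables, and the nuclear share from 0.534% to 0.591% and from 0.609% to 0.705%, so that neither share overlaps between the tables.

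The 2 vehicle knockout sets differed in both shares. In the set beside the treatments the mitochondrial share was 2.83%, 2.48% and 3.05%, above every library of the genotype table. Its nuclear share of 0.609%, 0.636% and 0.646% was also above every library of that table. Their tables were normalised separately and no test was made across them. On mean signals, the set beside the treatments was higher by a median of 0.68 on the log2 scale for mitochondrial members (9 of 11 above 0), 0.08 for nuclear members and 0.0097 for all genes. mt-Co1 stood at 1.04 in this difference, while mt-Co2 (-0.11) and mt-Nd3 (-0.08) were lower.

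ApoM changed no member past the threshold by limma, and edgeR and DESeq2 on recovered reads also called 0. Of all genes tested, 0.0434% were called by limma. At an unadjusted p under 0.05 stood 3 of 91 members, against 5.46% of all genes, and groups did not overlap for 10 members, against 10.7%. The median log2 difference was -0.01. The smallest p-values belonged to Ndufb3 (-0.23, adjusted p = 0.770, limma), Cox7b (-0.19), Uqcrq (0.17), mt-Nd5 (0.17) and Ndufb10 (-0.15).

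Of all members, 42 lay above 0 with ApoM, where 49.6% of all genes tested did, and this count turned on single libraries. It was 61 without ApoM replicate 2, and 32 without ApoM replicate 3 or without vehicle replicate 1. Nuclear members of complex V lay below 0 in 16 of 18 cases, with a median of -0.03. Mitochondrial members lay above 0 in 10 of 11, with a median of 0.10 and mt-Nd6 as the exception (-0.07). mt-Co3 (0.21), mt-Nd2 (0.16), mt-Cytb (0.15), mt-Nd1 (0.12), mt-Nd4 (0.10), mt-Co1 (0.10), mt-Atp6 (0.10), mt-Nd3 (0.07) and mt-Co2 (0.02) were not called. The mitochondrial share was 3.04% to 3.07% in the ApoM libraries, and only vehicle replicate 3, at 3.05%, lay within that range. None of the isoforms Cox4i1, Cox6a1, Cox6b1, Cox6b2, Cox7a2, Cox7a2l and Cox8a passed, nor did Ndufa4 or Atp5if1.

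After CYM50358 a single member passed the threshold, Cox8a, a small complex IV subunit. Its signal was 121, 127 and 134 with vehicle and 153, 154 and 158 with CYM50358, without overlap (log2 difference 0.28, SE 0.062, adjusted p = 0.0205, limma; 1.34% of all genes were called higher). With ApoM, Cox8a stood at 128.5, 131 and 149, all below the lowest CYM50358 library and in part within the vehicle range. The authors' deposited table, where 4.04% of genes were higher, has 11 members past the threshold, all above 0: Cox8a, Cox6a1, Ndufa13, Ndufb1, Uqcr10, Uqcrh, mt-Cytb, mt-Nd1, mt-Nd2, mt-Nd4 and mt-Nd5.

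Most other members leaned the same way without passing. Of 91 members, 81 lay above 0 against 49.6% of all genes tested, with a median log2 difference of 0.11. At an unadjusted p under 0.05 stood 22 members (16.6% of all genes), and groups did not overlap for 30 members (20.9% of all genes), 27 of them higher with CYM50358 (10.5% of all genes). By complex, 39 of 43 members lay above 0 in complex I, 3 of 4 in complex II, 9 of 9 in complex III, 14 of 16 in complex IV and 16 of 19 in complex V. Ndufa13, an accessory complex I subunit, had 0.23 (adjusted p = 0.0841, limma), Cox6a1 0.21 (0.104), Uqcrh 0.24 (0.108) and mt-Nd4 0.24 (0.118). Cox6b2 had the lowest value, at -0.40 (adjusted p = 0.338).

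The 11 mitochondrial members were all above 0, with a median of 0.20. mt-Cytb had 0.25 (adjusted p = 0.214, limma), mt-Nd5 0.22, mt-Nd2 0.21, mt-Nd1 0.20, mt-Co2 0.20, mt-Atp6 0.20, mt-Co3 0.18 and mt-Co1 0.15, while mt-Nd3 and mt-Nd6 had 0.03 each. They made up 3.32%, 3.27% and 3.13% of the CYM50358 libraries, each above the highest vehicle library. Nuclear members made up 0.651%, 0.657% and 0.705%, also above the vehicle range of 0.609% to 0.646%.

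This lean moved together with transcript length over all genes, a pattern examined after the values were seen. Among nuclear protein-coding genes with transcripts of up to 1000 bases, 76.7% lay above 0 with CYM50358 (median 0.10, 520 genes). The share fell to 67.1% from there to 2000 bases, 54.6% to 4000 bases, and 31.6% for longer transcripts (median -0.07). Most nuclear members are short: 46 of 79 with a length were in the first class, 43 of them above 0, and 24 in the second, 20 above 0. Cytosolic ribosomal proteins, another group of short transcripts, lay above 0 in 67 of 77 cases (median 0.06), and none of them rose past the threshold. ApoM against vehicle had no such trend, with class medians from -0.0031 to 0.00073, and in knockout against wild type they ran from -0.0060 to 0.012.

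After the median of each length class was subtracted, 59 of 91 members lay above 0 with CYM50358, the median was 0.03, and Cox8a did not pass (0.19, adjusted p = 0.155, limma). The mitochondrial median was then 0.10, with 9 of 11 above 0. What length moves with, such as RNA quality or library preparation, was not tested. The Cox8a call was also lost without CYM50358 replicate 2 or 3 and without vehicle replicate 1 or 2.

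**Figure D5:**
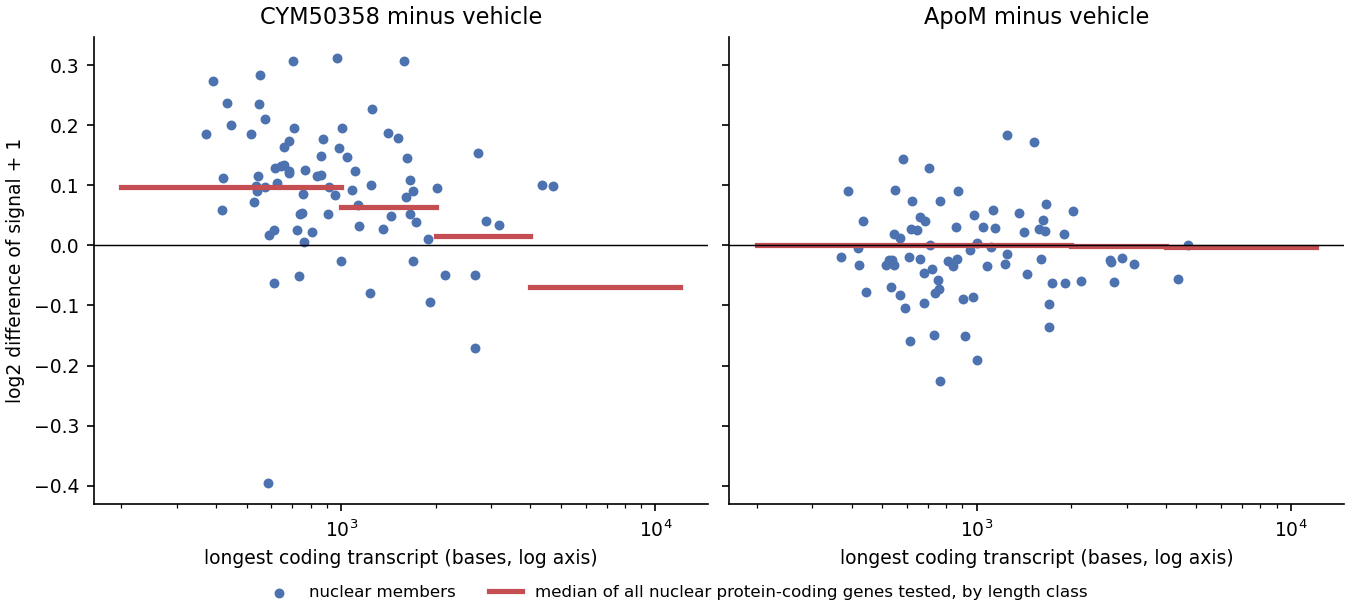
Log2 differences of nuclear members (points) against the length in bases of the longest coding transcript (log axis), with CYM50358 and with ApoM, each against vehicle; bars are medians of all nuclear protein-coding genes tested in each length class. With CYM50358 the median of all genes runs from 0.10 in the shortest to -0.07 in the longest class, and with ApoM it stays near 0 in every class.

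Set directly against each other, ApoM and CYM50358 gave no called member by limma, where 2.59% of all genes were called. 24 members had an unadjusted p under 0.05 (15.2% of all genes), groups did not overlap for 31 (19.5%), and 29 of these were lower with ApoM (9.45% of all genes). 81 of 91 lay below 0, with a median of -0.10, where 50.2% of all genes tested lay above 0. Transcript length moved with the values here too. Of nuclear protein-coding genes with up to 1000 bases, 19.8% lay above 0 (median -0.10), and 69.6% of those over 4000 bases (median 0.07). After length-class medians were subtracted, 32 members lay above 0, with a median of -0.04. Both treatment comparisons use the same vehicle libraries, and this one reuses the treated libraries, so the 3 sets of values are not independent. The smallest p-values were those of Ndufa13 (-0.24, adjusted p = 0.0553, limma), Ndufb4 (-0.40, adjusted p = 0.0611), Atp5pd (-0.22), Cox8a (-0.19) and Cox6a1 (-0.20).

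Ndufb4, an accessory complex I subunit, had signals of 13.3, 12.1 and 13.5 with ApoM and 16.7, 18.5 and 17.0 with CYM50358, and 14.2, 12.8 and 14.5 with vehicle. The treated groups did not overlap, and the vehicle libraries lay between or within the ApoM range. With the replicate number as a block, 14 members were lower with ApoM (3.62% of all genes): Ndufa11, Ndufa13, Ndufb4, Ndufv2, Ndufv3, Uqcr11, Uqcrh, Cox6a1, Cox7c, Cox8a, Atp5f1d, Atp5mk, Atp5pd and mt-Nd4. Once length-class medians were also subtracted, 1 of these, Ndufa13, was lower (-0.18, adjusted p = 0.0370, limma). 1 member was then higher with ApoM, Cox6b2 (0.63, adjusted p = 0.0477), at a signal of 2.16 to 3.48 with ApoM and 1.04 to 2.04 with CYM50358. Mitochondrial members had a median of -0.08 before that subtraction and 0.0079 after it. Their values without the block were -0.18 for mt-Co2, -0.13 for mt-Nd4, -0.10 for mt-Atp6, -0.09 for mt-Nd6 and mt-Cytb, -0.08 for mt-Nd1, -0.05 for mt-Nd2, mt-Co1 and mt-Nd5, 0.03 for mt-Co3 and 0.04 for mt-Nd3.

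Genes that build, supply or regulate the system were taken from 8 lists. In knockout against wild type, 3 of 53 assembly factors rose, the complex III factors Uqcc2 (0.38) and Uqcc3 (0.38) and the copper chaperone Sco2 (0.42), and 8 fell, among them Higd2a (-0.53) and Coa6 (-0.47) of complex IV and Timmdc1 (-0.29) of complex I. Mean Sco2 signal was low in both groups, 0.388 in wild-type and 0.863 in knockout cells. Of 4 subunits and carriers that the name stems miss, Cycs, cytochrome c, fell (-0.32). Of 15 genes for replication and transcription of mitochondrial DNA, the mitochondrial RNA polymerase Polrmt (0.35) and the packaging factor Tfam (0.43) rose and none fell. Among 20 RNA processing genes, 3 rose (Supv3l1 0.41, Pnpt1 0.33, Ptcd1 0.20) and 3 fell (Rexo2 -0.35, Ptcd3 -0.30, Trmt10c -0.26). Supv3l1 and Pnpt1 together form the mitochondrial RNA degradosome. Of the rises above, Polrmt, Tfam and Supv3l1 lie on chromosome 10, where the median of all genes was 0.28. Sco2 lies on chromosome 15, Uqcc3 on chromosome 19 and Ptcd1 on chromosome 5 (medians of 0.17 each). Coa6, which fell, lies on chromosome 8 (0.28). Of the other falls, those of Cycs and Ptcd3 lie on chromosome 6 (-0.17). The part of chromosome medians in these values was not tested.

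Of 11 transcriptional regulators, Esrra (0.46) and Myc (0.48) rose and Esrrg, a close relative of Esrra, fell (-0.95). Mean Esrrg signal was low in both groups, 1.12 in wild-type and 0.0929 in knockout cells. Among 18 genes of the tricarboxylic acid cycle and pyruvate dehydrogenase, 3 rose, among them Idh2 (0.88) and Cs (0.32), and 4 fell, with Suclg2 (-0.42), Idh3a (-0.25) and Pdhx (-0.25) the clearest. Of 16 carriers, pores and import genes, 4 rose, among them Vdac3 (0.36), Timm44 (0.41) and the ADP/ATP carrier Slc25a4 (0.27), and 3 fell, the uncoupling protein Ucp2 (-2.15), Vdac1 (-0.33) and Hspd1 (-0.23). Mitochondrial ribosomal proteins split as well, with 14 rising and 10 falling of 78, led by Mrps12 (0.82), Mrpl3 (0.53) and Mrps21 (-0.43). Most lists thus held changes in both directions, beside the 22.6% and 22% of all genes named above. Of the rises in these last lists, Vdac3, Timm44 and Slc25a4 lie on chromosome 8 and Cs on chromosome 10 (medians of all genes 0.28 each). Myc lies on chromosome 15 and Esrra on chromosome 19 (0.17 each). Suclg2, which fell, lies on chromosome 6 (-0.17). The part of chromosome medians in these rises and falls was not tested.

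In the treatments the same lists hardly moved. With ApoM no gene of any list passed, where 0.0434% of all genes did. With CYM50358, Ucp2 fell (-0.43, adjusted p = 0.00429, limma), as did the import receptor Tomm70a (-0.25, adjusted p = 0.0416), and no other gene of the lists passed. Ucp2 was also higher with ApoM than with CYM50358 (0.55, adjusted p = 6.22e-05), and Mrpl17 was lower (-0.35, adjusted p = 0.0260). Of 78 mitochondrial ribosomal proteins, 62 lay above 0 with CYM50358 (median 0.07), and no p passed.

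Promoter motifs were not used by the name rule, and most promoters of nuclear members held none of the 3 searched. Promoter windows of 300 bases, 250 before and 50 after the start, came from RefSeq on GRCm38.p6 and matched 67 of the 80 nuclear members. On either strand, the NRF1 motif GCGCANGCG was present in 31.3% of them against 7.03% of all 27025 genes. The YY1 motif AAGATGGCG was present in 10.4% against 1.64%, and the ETS motif CCGGAAGT in 7.46% against 4.31%. Any of the motifs was found in 30 members, 44.8% against 11.9%. Unlike the members, the 27025 genes were not filtered by signal, and the part of this in the shares was not tested. Of the 7 YY1 matches, 6 began 23 to 36 bases after the start, in Ndufc1, Atp5mf, Ndufs7, Ndufa9, Ndufs6 and Ndufs4. NRF1 matches on opposite strands can overlap because the motif is nearly a palindrome. A match is a description of letters and no evidence of binding.

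The last 200 bases of 6 promoters, 150 before and 50 after the start, are printed for members whose expression results were described above, and capitals mark motif matches. Uqcrc1 (chr9:108936498-108936697, plus strand) and Uqcrh (chr4:116075021-116075220, minus) belong to the same complex and moved in opposite directions between the genotypes; the former has NRF1 matches and the latter an ETS match. Ndufs7 (chr10:80249299-80249498, plus) shows the YY1 match downstream of the start, and Ndufs5 (chr4:123718137-123718336, minus) an NRF1 match. Cox8a (chr19:7217567-7217766, minus), the member called with CYM50358, has 2 ETS matches. Cox6b2 (chr7:4753045-4753244, minus) has none of these letters in its window.
Uqcrc1: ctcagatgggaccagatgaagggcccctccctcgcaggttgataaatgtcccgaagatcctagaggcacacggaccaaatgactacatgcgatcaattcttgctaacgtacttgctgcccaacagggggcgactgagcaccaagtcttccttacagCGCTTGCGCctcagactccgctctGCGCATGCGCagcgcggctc
Uqcrh: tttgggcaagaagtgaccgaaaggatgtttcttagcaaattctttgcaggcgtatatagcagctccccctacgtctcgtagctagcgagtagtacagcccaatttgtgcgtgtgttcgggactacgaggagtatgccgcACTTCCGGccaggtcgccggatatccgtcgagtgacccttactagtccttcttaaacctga
Ndufs7: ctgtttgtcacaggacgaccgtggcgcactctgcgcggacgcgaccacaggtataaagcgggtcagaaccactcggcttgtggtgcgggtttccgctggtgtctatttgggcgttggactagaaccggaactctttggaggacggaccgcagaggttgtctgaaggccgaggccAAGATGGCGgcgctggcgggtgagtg
Ndufs5: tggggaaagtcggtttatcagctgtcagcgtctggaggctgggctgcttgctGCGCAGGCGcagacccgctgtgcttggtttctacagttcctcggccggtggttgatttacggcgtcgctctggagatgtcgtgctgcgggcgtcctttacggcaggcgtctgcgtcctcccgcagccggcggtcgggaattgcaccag
Cox8a: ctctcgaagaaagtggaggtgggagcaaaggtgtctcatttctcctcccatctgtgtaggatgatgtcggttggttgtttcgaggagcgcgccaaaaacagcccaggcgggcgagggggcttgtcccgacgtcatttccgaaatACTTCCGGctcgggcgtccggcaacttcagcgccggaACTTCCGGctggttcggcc
Cox6b2: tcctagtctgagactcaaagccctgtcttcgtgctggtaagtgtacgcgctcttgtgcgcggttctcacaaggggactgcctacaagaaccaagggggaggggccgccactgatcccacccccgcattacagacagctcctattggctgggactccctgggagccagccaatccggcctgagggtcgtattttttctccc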

How the data were processed

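RNA of 15 mouse podocyte samples was made into mRNA-Seq libraries, and 3 tables of 57132 genes each were used. The submitters' processing notes name FastQC, Trim Galore, STAR, edgeR and the build mm39; the sources used here give neither their versions and roles nor whether counting used strand or multiply matching reads, so overlapping and antisense genes are uncertain. The authors deposited signal per library, without a stated unit, summing to 972556 to 1026940 per library, close to CPM times a factor for each library. Log2 fold changes and adjusted p-values were deposited too, per the file headers. Every value above 0 was a whole number of reads (100%, tolerance 0.01), and intervals of such counts would cover counting error only.

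The main test was limma (version 3.58.1, R 4.3.3) with a mean-variance trend, fitted to log2(signal + 1) of the 6 libraries in a comparison, for genes with signal of at least 0.5 in 3 libraries, with Benjamini-Hochberg adjustment and a threshold of 0.05. Fold changes on this scale understate the change of low genes. Count tests on recovered reads (edgeR 4.0.16, DESeq2 1.42.0), other pseudocounts, filters, scalings, replicate blocks and left-out libraries were alternatives. Subtracting length-class medians was chosen after seeing the data, as were the sums of members and copies. The members and lists were chosen with earlier results of these data known. The 3 vehicle columns were identical in both treatment tables, so the 9 treatment libraries share a scale.

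Named members were all mitochondrial ones, the 3 largest called rises and falls of nuclear members per complex, the 5 smallest p-values where fewer than 5 were called, listed isoforms, the members of highest and lowest signal, and up to 3 called genes per direction of each list. Other names were chosen after their values were seen, and some listed genes are not reported here. Replicate numbers came from the sample titles. Deviations from group means correlated between same-numbered wild-type and knockout libraries (0.371, 0.217 and 0.105) and between ApoM and CYM50358 libraries (0.132, 0.115 and 0.132). These were therefore treated as pairs in the block fits, but not in the main test. The choice came from the same data that the block fits used. For wild-type replicate 3 the value with knockout replicate 2 was higher (0.197). Treated and vehicle libraries were not taken as paired. A replicate block was still run for them as an alternative, and it called 0 members with ApoM and 1 with CYM50358. Copies were searched in GENCODE vM21 (GRCm38) by shared stretches of 50 bases; promoters came from RefSeq (GRCm38.p6).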

Additional observations from a re-analysis of the deposited data

How the results depend on the processing

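Members higher in knockout cells numbered 15, and 8 without the filter on low values, 8 with medians aligned, 6 with chromosome medians subtracted, 24 with the replicate block, and 24 with block and length-class medians together; leaving out each library gave 7 to 12. Those lower numbered 15, and 5 with totals over nuclear genes and 6 to 17 with a library left out. With CYM50358, 1 member was higher, and 0 without the filter, 6 by DESeq2, 0 with length-class medians subtracted, and 0 to 1 with a library left out. With ApoM against CYM50358, 0 were lower, and 1 with a signal of at least 5, 1 by edgeR, 4 by DESeq2, 2 with nuclear totals, 14 with the replicate block, 1 with block and length-class medians (which also gave 1 higher), and 0 to 3 with a library left out. Counts for ApoM against vehicle were 0 in every alternative run, the replicate block included.

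With chromosome medians subtracted, 38 of 91 members lay above 0 between the genotypes, against 45 before. Among members called in either fit, 7 changed sign: Ndufa9 (0.0061), Atp5f1d (-0.21), Ndufa12 (-0.0096), Uqcr11 (-0.17), Ndufb7 (-0.056), Ndufa13 (-0.069) and Ndufv1 (-0.0034). Uncalled members changed sign too. mt-Co1 (0.25), mt-Co3 (0.19), mt-Nd3 (0.26) and mt-Nd5 (0.21) lay below the median of mitochondrial DNA genes, 0.29, and so fell below 0. That median was taken over 15 genes, 11 of them members, so some members were bound to fall below 0. The cause of these changes was not tested. Among mitochondrial members, mt-Nd3 rests on 10 to 60 reads per library.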
